A study of Mus musculus with 14 samples.

Results

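Secreted antagonists of Wnt signalling were measured in tissue described as epididymal fat, a white fat depot that is still growing at weaning. It came from 14 mice of the ICR strain, all of them labelled as males at 3 weeks of age. The genes were Sfrp1, Sfrp2, Sfrp4, Sfrp5 and Frzb (also called sFRP3) of the secreted frizzled-related family, and Dkk2 and Dkk3 of the Dickkopf family. They were chosen by name, with all probe sets annotated to these 7 genes of the 12393 genes that had a probe set of a single gene symbol. In GRCm38 coordinates of RefSeq they lie at chr8:23411383-23449632 (Sfrp1), chr3:83765750-83774314 (Sfrp2), chr13:19623175-19632825 (Sfrp4), chr19:42197971-42202252 (Sfrp5), chr2:80411970-80447396 (Frzb), chr3:132085266-132180304 (Dkk2) and chr7:112116019-112159482 (Dkk3). The search gave 12 probe sets, 4 for Sfrp1, 2 each for Frzb and Dkk3 and 1 for each other gene. The CC mice (n = 5) had dams with free access to chow in pregnancy and while nursing, the UC mice (n = 5) were undernourished in utero only, by a 50% restriction of food, and nursed by dams with free access to chow, and the UU mice (n = 4) were undernourished by the same restriction in utero and while suckling. RNA of each animal was hybridised to a single-channel Affymetrix array, whose signals are in arbitrary linear units. The labels name no litters or separate cultures, so p-values measure the spread between these animals only, some of which may be littermates.

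Wnt proteins are secreted signals that bind Frizzled receptors with the co-receptors Lrp5 and Lrp6 on the cell surface, stabilise beta-catenin and switch on genes through TCF/LEF factors. In fat precursor cells this signalling holds back adipogenesis. Frizzled-related proteins carry a domain like the Wnt-binding part of the receptor and can capture Wnt outside the cell, whereas Dkk2 binds the co-receptors. Dkk3 is a divergent family member, and how it acts on Wnt signalling is less settled.

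Of the 12 probe sets, 7 passed a filter that left out the dimmest 40% of all probe sets by mean signal over the 14 arrays. They were 3 of Sfrp1, both of Dkk3 and the single ones of Sfrp2 and Sfrp4. The probe sets of Sfrp5, Dkk2 and Frzb and the dimmest of Sfrp1 lay below it, so 5 probe sets are given as values from a fit of all 22626 probe sets that are not controls. Signals of different probe sets are not comparable with each other.

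Some samples stood apart. CC replicate 2 and UC replicate 5, labelled male, had signals of 14479.3 and 9136.8 for Xist, the RNA that silences an X chromosome in females, against at most 80.1 in the other 12. The Y-linked Eif2s3y was at 58.6 and 7.9 in them and at 1234.9 to 2233.6 elsewhere. The male label does not match these signals, so the sex and depot labels of both samples are in doubt. No UU sample had such signals, so the comparisons with UU are unbalanced in them, and the main fits kept both samples. Together with CC replicate 4 and UC replicate 2 they also had the lowest levels of epididymal epithelium markers, with mean log2 signals of 7.08 to 7.94 over the 5 markers tested, against 11.05 to 14.06 in the other 10. Adipocyte markers, 7 of 7 tested, were high in every sample, with mean log2 levels of 13.96 to 14.72 in CC, 13.83 to 14.65 in UC and 12.78 to 13.87 in UU. Liver markers had levels of 7.77 to 9.49 in CC, 9.37 to 13.88 in UC, highest in UC replicate 2, and 9.69 to 10.21 in UU. Skeletal muscle markers were at 11.87 and 11.76 in CC replicates 2 and 5 and at most 9.17 in the other samples. The part of these transcripts of other tissues in the antagonist levels was not tested.

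Sequence around a transcription start was at hand for 4 of the 7 genes, Sfrp2, Frzb, Sfrp5 and Dkk2, in RefSeq's table for GRCm38.p6. Those of Sfrp2 and Frzb are shown because these genes each had a probe set that was higher in CC replicate 2 and UC replicate 5 than in all other samples. The Frzb one lay below the filter, and the other Frzb probe set did not share this pattern. Each sequence runs from 250 bases before the start to 50 after it, 5′ to 3′ on the gene's strand. It lies at chr3:83766071-83766370 on the plus strand for Sfrp2 and at chr2:80447347-80447646 on the minus strand for Frzb. The Sfrp2 window lies inside the gene span given above, so it is not upstream of the span's first base, and the start used is that of the promoter table. Capitals mark CG dinucleotides, where cytosines can be methylated.
Sfrp2: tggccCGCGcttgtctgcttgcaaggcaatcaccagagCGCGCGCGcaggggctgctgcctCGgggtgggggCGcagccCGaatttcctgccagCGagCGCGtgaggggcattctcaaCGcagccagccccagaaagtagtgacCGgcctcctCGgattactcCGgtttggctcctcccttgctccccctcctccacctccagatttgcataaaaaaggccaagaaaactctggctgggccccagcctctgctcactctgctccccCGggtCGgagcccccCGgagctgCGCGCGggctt
Frzb: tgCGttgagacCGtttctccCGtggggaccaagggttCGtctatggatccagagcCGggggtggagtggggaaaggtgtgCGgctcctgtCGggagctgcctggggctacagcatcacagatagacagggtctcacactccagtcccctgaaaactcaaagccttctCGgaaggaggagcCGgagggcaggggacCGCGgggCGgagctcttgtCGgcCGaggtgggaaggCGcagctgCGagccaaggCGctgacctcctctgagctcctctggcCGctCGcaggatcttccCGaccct
The Sfrp2 window held 22 CG dinucleotides and the Frzb window 20, against a median of 7 over 32851 promoter windows of the same length, and 76.9% and 73.5% of those windows held fewer. Sfrp5 had 15 and Dkk2 11. CTTTG, the core of the site that TCF/LEF factors bind, was searched on both strands. It had a match in the windows of Frzb and Dkk2 and none in those of Sfrp2 and Sfrp5, and 53.9% of all windows held a match. TATAAA, the TATA box, had a match only in the Dkk2 window of these 4, and in 13.6% of all windows.

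No antagonist passed the test in any comparison of the feeding groups. Each test was limma's, two-sided, over 13576 probe sets with Benjamini-Hochberg adjustment and a threshold of 0.05. Of the 7 probe sets tested, 0 were called in UC versus CC, 0 in UU versus CC and 0 in UC versus UU, and the smallest adjusted p was 0.51, 0.308 and 0.198. At an unadjusted p under 0.05 there was 1 of the 7 in each comparison. Of all probe sets tested, 4.13% were higher and 5.1% lower at that p in UC versus CC. In UU versus CC these shares were 7.9% and 8.05%, and in UC versus UU 7.75% and 8.45%. Over all probe sets the share called was 0% higher and 0% lower in UC versus CC, 0% and 0% in UU versus CC, and 0.398% higher and 0.0442% lower in UC versus UU. The median log2 difference of the 7 was 0.04, 0.45 and -0.41, against -0.02, 0.04 and -0.07 over all probe sets tested, and those 7 include 3 probe sets of Sfrp1 and 2 of Dkk3.

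**Figure D1:**
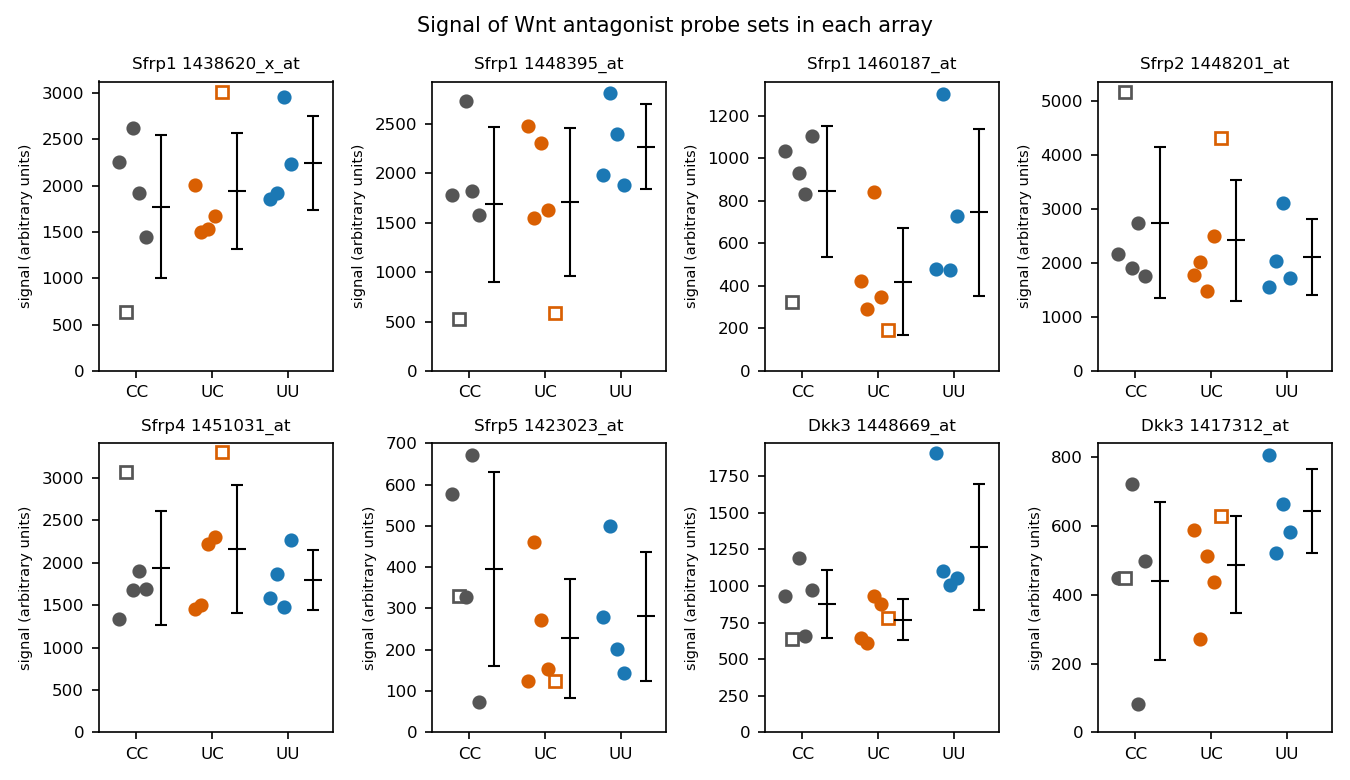
Signal in arbitrary units (linear axis from 0) of 8 antagonist probe sets in each array by feeding group, with the group mean ± SD as a bar beside the points. Open squares are CC replicate 2 and UC replicate 5, which lie above all other samples for Sfrp2 and Sfrp4, while all 4 UU samples lie above the 5 UC samples for the first Dkk3 probe set.

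Sfrp2, a frizzled-related protein made by stromal cells and fibroblasts, did not differ between the groups beyond their spread. Its signals were 2173.9, 5169.8, 1901.4, 2739.2 and 1753.6 in CC replicates 1 to 5. They were 1773.7, 2026.4, 1487.3, 2500.2 and 4320.4 in UC replicates 1 to 5, and 1564.4, 2039.3, 3120.3 and 1720.8 in UU replicates 1 to 4. The groups overlapped throughout, and the highest values were those of CC replicate 2 and UC replicate 5. On the log2(signal + 32) scale, used for all differences here, UC versus CC gave -0.16 ± 0.32 (SE, limma adjusted p = 0.892) and UU versus CC gave -0.31 ± 0.33 (adjusted p = 0.653). UC versus UU gave 0.14, with a 95% interval of -0.57 to 0.85, and -0.09 without CC replicate 2 and UC replicate 5, where UU versus CC was -0.05.

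Sfrp4, its relative, had signals of 1334.9, 3075.2, 1682.4, 1905.4 and 1686.6 in CC. In UC they were 1457.3, 1497.5, 2224.3, 2299.5 and 3310.3, and in UU 1584.9, 1865.5, 1483.6 and 2272.9. Again CC replicate 2 and UC replicate 5 were highest, and the groups overlapped. The log2 difference was 0.15 ± 0.25 (SE) for UC versus CC, -0.06 ± 0.26 for UU versus CC and 0.21 ± 0.26 for UC versus UU, with limma adjusted p of 0.871, 0.916 and 0.711. Without CC replicate 2 and UC replicate 5 the UU versus CC value was 0.11, on the other side of 0. The 95% intervals reached from -0.62 to 0.49 for UU versus CC and from -0.37 to 0.66 for UC versus CC.

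Some antagonist probe sets set CC replicate 2 and UC replicate 5 apart from the rest. Of the 7 probe sets tested, those of Sfrp2 and Sfrp4 were higher in both CC replicate 2 and UC replicate 5 than in any of the other 12 samples, whose signals were 1487.3 to 3120.3 for Sfrp2 and 1334.9 to 2299.5 for Sfrp4. Of all probe sets tested, 3.48% were. A probe set of Sfrp1, 1448395_at, was lower in both, at 528.6 and 584.2 against 1550.6 to 2817.5, as were 3.43% of all probe sets. The other 4 probe sets tested overlapped, among them Sfrp1 1438620_x_at, where these samples lay at opposite ends, and both of Dkk3. A Frzb probe set below the filter, 1416658_at, was at 352.2 and 291.6 in them and at 10.1 to 135.0 in the others. The other Frzb probe set, 1448424_at, overlapped, at 111.7 and 49.3 against 8.2 to 207.7. The shares given here cover only probe sets above the filter. CC replicate 4 and UC replicate 2, low in epididymal markers but without Xist signal, did not share these levels, with 2739.2 and 2026.4 for Sfrp2, 1905.4 and 1497.5 for Sfrp4 and 1819.2 and 1550.6 for Sfrp1 1448395_at. In the Sfrp1 probe sets 1460187_at and 1416594_at, though, UC replicate 2 was low too, at 291.6 and 46.2. The values were 322.1 and 31.7 in CC replicate 2, 191.0 and 58.0 in UC replicate 5, and 831.8 and 162.1 in CC replicate 4.

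Other transcripts also stood out in CC replicate 2 and UC replicate 5. Markers of mesothelium, the cell layer that covers the fat pad, averaged 11.38 (log2) for CC replicate 2 and 10.83 for UC replicate 5 over the 4 markers tested (Msln, Upk3b, Wt1 and Bnc1), and 8.69 to 10.01 in the other 12. By group this level ran from 9.17 to 11.38 in CC, from 9.38 to 10.83 in UC and from 8.69 to 9.82 in UU. The lowest signal of any of these markers was 226.7, for Msln in UU replicate 1. The level of stromal and fibroblast markers was 13.57 and 13.58 in these samples and at most 13.41 elsewhere, with 12.80 to 13.14 in UU. Macrophage markers were highest in them too, at 13.37 and 13.22 against at most 13.01 elsewhere, and general epithelial markers lowest, at 8.58 and 9.11, next to 9.13 in UC replicate 2. In bulk tissue, fewer cells of a type and less RNA per cell cannot be told apart. The part of these cells in the Sfrp2 and Sfrp4 levels was not tested.

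**Figure D2:**
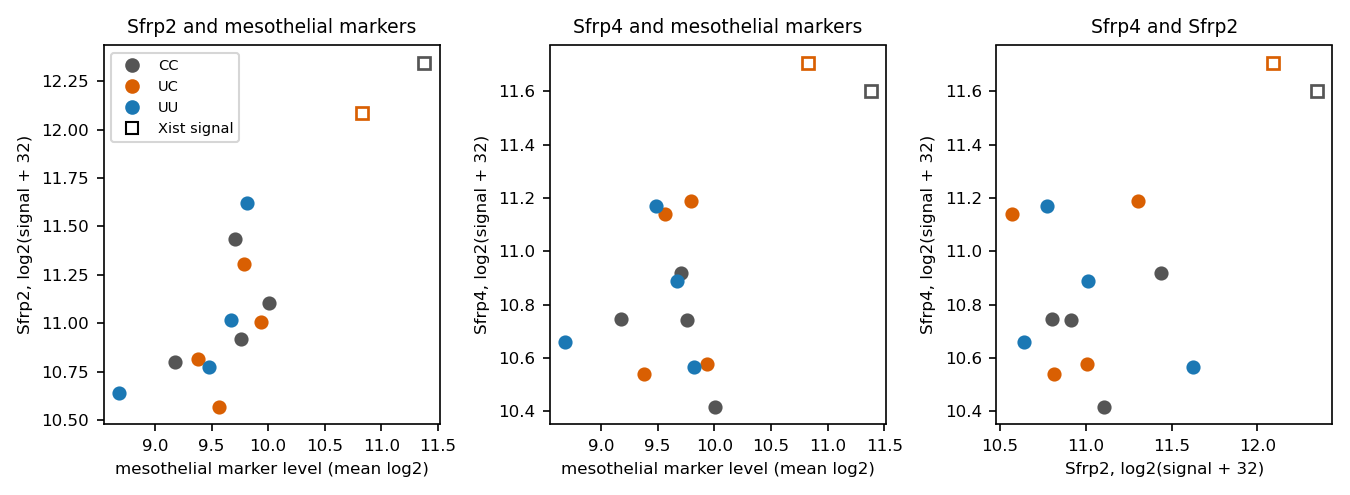
Left and centre, log2(signal + 32) of Sfrp2 and of Sfrp4 against the mean log2 level of 4 mesothelial markers; right, Sfrp4 against Sfrp2, both as log2(signal + 32). Each point is an array, coloured by feeding group, and the open squares are CC replicate 2 and UC replicate 5, which sit at the upper right in each panel.

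Across the arrays Sfrp2 followed the mesothelial markers (Pearson r = 0.88, permutation p = 6e-05, adjusted p = 0.00198; Spearman rho = 0.82, permutation p = 0.00061, adjusted p = 0.0185; n = 14, both two-sided and adjusted over 33 relations). Without CC replicate 2 and UC replicate 5, the samples farthest from the median marker level, r was 0.60 over 12 arrays (permutation p = 0.0398, unadjusted). With group means removed r was 0.89. Relations to these cell type levels were not among those planned. CC replicate 2 and UC replicate 5 were highest in both Sfrp2 and the mesothelial markers, so the p-values over 14 arrays rest in part on them. The stromal and fibroblast level gave r = 0.54 with Sfrp2 and 0.53 with Sfrp4 (permutation p = 0.0463 and 0.0505, adjusted p = 0.139 for both; rho = 0.36 and 0.28), and -0.17 and -0.11 without those samples. Sfrp4 gave r = 0.64 with the mesothelial markers (adjusted p = 0.0716), with rho = 0.21, and rested on those samples, since without them r was -0.04. The relation of Sfrp2 and Sfrp4 to each other rested on them too, with r = 0.60 over 14 arrays (permutation p = 0.0234, adjusted p = 0.0965) and -0.14 over the other 12. Only the mesothelial level and the stromal and fibroblast level were set against Sfrp2 and Sfrp4. The macrophage level, also highest in CC replicate 2 and UC replicate 5, was not, so a relation particular to mesothelium was not tested.

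The genes whose pattern over the 14 arrays was most like that of Sfrp2, of 8280 genes compared, were the growth factor Ptn (r = 0.91), the mesothelial transcription factor Bnc1 (0.90), itself of the marker list, and Laptm5, a lysosomal membrane protein of blood cells (0.90). Bnc1 read 1650.7 and 941.3 in the samples with Xist signal and no more than 644.0 elsewhere. For Sfrp4 they were the adhesion protein Cntn1 (r = 0.90), the homeobox gene Hoxa11 (0.90), which patterns the limb and the female reproductive tract, and Xist (0.88). Hoxa11 was at 987.4 and 1233.3 in those samples and at 298.8 to 711.2 in the others. These correlations were the highest among many and are given as a description.

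Sfrp1, which binds Wnt ligands and blocks their access to receptors, gave readings that depended on the probe set. For 1438620_x_at, the brightest, the signals were 2249.9, 633.1, 2621.2, 1921.8 and 1440.3 in CC. They were 2002.3, 1495.5, 1531.8, 1671.2 and 3004.6 in UC, and 1851.9, 1920.3, 2960.0 and 2234.4 in UU. CC replicate 2 was the lowest of all 14 samples and UC replicate 5 the highest. In 1448395_at they were the lowest samples, and the other values were 1784.3, 2732.9, 1819.2 and 1576.9 in CC, 2482.4, 1550.6, 2310.9 and 1629.0 in UC, and 1984.3, 2817.5, 2403.7 and 1886.4 in UU. UC versus CC gave 0.22 ± 0.31 (log2, SE, adjusted p = 0.842 by limma) for the first and 0.04 ± 0.40 (adjusted p = 0.987) for the second, and without CC replicate 2 and UC replicate 5 the first was at -0.27. UU versus CC gave 0.45 ± 0.33 and 0.57 ± 0.42, with adjusted p of 0.502 and 0.504, and 0.13 and 0.21 without those samples. UC versus UU gave -0.23 ± 0.33 and -0.54 ± 0.42 (adjusted p = 0.759 and 0.539), and -0.40 and -0.20 without those samples or without UC replicate 5 alone.

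The Sfrp1 probe set 1460187_at had lower values in most UC samples. Its signals were 1032.3, 322.1, 931.2, 831.8 and 1103.2 in CC, 421.5, 291.6, 841.8, 347.6 and 191.0 in UC, and 478.3, 1303.6, 472.2 and 726.4 in UU. The groups overlapped because CC replicate 2 was low and UC replicate 3 high. UC lay below CC by -1.01 ± 0.40 on the log2 scale (SE, unadjusted p = 0.0229, adjusted p = 0.51 by limma), where 5.1% of all probe sets were lower at an unadjusted p under 0.05. Its 95% interval was -1.85 to -0.16, and without CC replicate 2 and UC replicate 5 the value was -1.09 (adjusted p = 0.32). With the 3'/5' signal ratio of Gapdh and Actb, a measure of RNA degradation that was 1.63 and 1.60 (log2) in UC replicates 1 and 4, 0.40 to 1.08 in CC, within that range in the other UC samples and highest in UU replicate 3 at 2.10, as a covariate it was -0.70 (unadjusted p = 0.131). UU versus CC gave -0.19 ± 0.42 and UC versus UU -0.82 ± 0.42 (adjusted p = 0.841 and 0.348).

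The dimmest Sfrp1 probe set, 1416594_at, was below the filter, with signals from 31.7 to 709.3 in CC, 46.2 to 678.8 in UC and up to 938.7 in UU. Its log2 differences were -0.68 for UC versus CC and -0.29 for UU versus CC, with standard errors of 0.78 and 0.82. It followed 1460187_at over the arrays (r = 0.74, permutation p = 0.00333, adjusted p = 0.0549; rho = 0.80, adjusted p = 0.0185; n = 14), and r was 0.66 without UC replicate 5 and UU replicate 2. The brightest, 1438620_x_at, had r = 0.43 with 1448395_at, 0.10 with 1460187_at and 0.25 with 1416594_at (permutation p = 0.13, 0.741 and 0.414, adjusted p = 0.307, 0.912 and 0.716). With 1448395_at, r was 0.64 for 1460187_at and 0.57 for 1416594_at (permutation p = 0.00975 and 0.0261, adjusted p = 0.0643 and 0.0965), and 0.31 and 0.24 without CC replicate 2 and UC replicate 5. Which probe set best reads Sfrp1 was not tested. The genes most like 1438620_x_at over the arrays were Ralgps2 (r = 0.87), the vesicle protein Syt7 (0.84) and the cytochrome P450 Cyp1a1 (0.83).

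**Figure D3:**
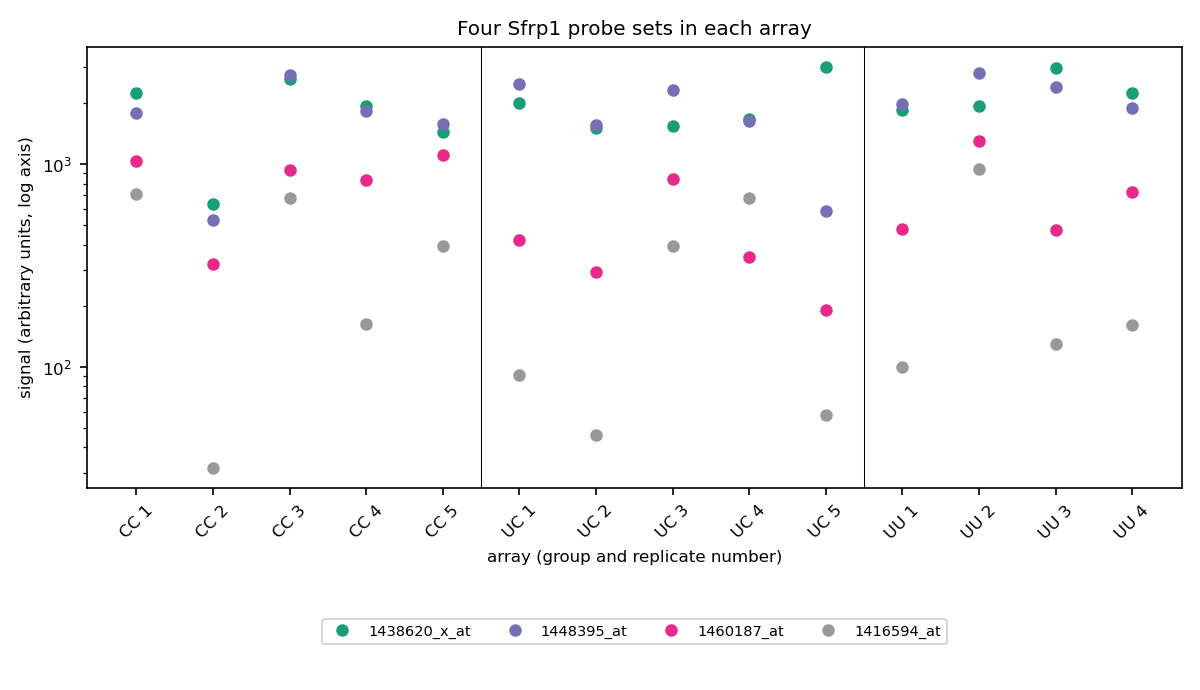
Signal (arbitrary units, log axis) of the 4 Sfrp1 probe sets in each of the 14 arrays, in order of group and replicate number, with vertical lines between the groups. In UC replicate 5 the probe set 1438620_x_at read 3004.6 and 1448395_at 584.2, whereas in CC replicate 2 they read 633.1 and 528.6.

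Sfrp5, a frizzled-related protein of mature fat cells whose level is known to follow adipose expansion, was dim and varied widely within groups. Its signals were 576.2, 330.0, 327.6, 670.7 and 74.1 in CC, 124.8, 461.4, 272.9, 154.3 and 125.4 in UC, and 280.5, 499.5, 200.8 and 144.6 in UU. All 3 groups overlapped. Mean signals by group were 395.7 ± 234.8 (SD, n = 5) for CC, 227.8 ± 144.1 (n = 5) for UC and 281.4 ± 155.8 (n = 4) for UU. In the fit without the filter the log2 difference was -0.62 ± 0.50 (SE) for UC versus CC, -0.32 ± 0.53 for UU versus CC and -0.30 ± 0.53 for UC versus UU, with limma adjusted p of 0.758, 0.821 and 0.849. Leaving out CC replicate 5, the lowest sample, moved UC versus CC to -1.06 (unadjusted p = 0.0256, adjusted p = 0.794) and UU versus CC to -0.76, and leaving out CC replicate 4, the highest, moved them to -0.38 and -0.07. Over all samples left out in turn, UC versus UU ran from -0.57 without UC replicate 2 to -0.005 without UU replicate 2. For UU versus CC the 95% interval ran from -1.44 to 0.81.

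Other genes tied to fat expansion gave other values in the same arrays. Mest, an imprinted gene that marks growing fat, averaged 17848 ± 9437 (SD) among CC samples, 16357 ± 2589 among UC and 3444 ± 1435 among UU. Npr3, a natriuretic peptide clearance receptor, was at 8922 ± 3936, 10075 ± 3007 and 2860 ± 1424. Both were called higher in UC than in UU (log2 differences of 2.32 ± 0.38 and 1.91 ± 0.37, limma adjusted p = 0.0317 and 0.0439). With each of the 14 samples left out in turn the difference was 2.11 to 2.54 for Mest and 1.54 to 2.17 for Npr3, but the Mest call was lost in 6 of these fits and the Npr3 call in 10, with adjusted p of up to 0.0922 and 0.135. Lep, the leptin gene, gave 2.63 ± 0.82 (limma adjusted p = 0.157), and 1.32 ± 0.33 without UU replicate 1 (adjusted p = 0.177). Over the arrays the Pearson r of Sfrp5 was 0.17 with Mest, 0.14 with Npr3 and 0.02 with Lep (permutation p = 0.55, 0.636 and 0.962, adjusted p = 0.825, 0.874 and 0.962; Spearman rho 0.39, 0.20 and 0.10, permutation p = 0.165, 0.492 and 0.728; n = 14). Without the 2 samples farthest from the median of each gene r was 0.21, 0.20 and -0.01.

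Frzb and Dkk2 were near the lower end of the signals. Frzb ran from 30.7 to 352.2 in CC, from 10.1 to 291.6 in UC and from 39.3 to 123.5 in UU in 1416658_at, and from 12.8 to 205.3, from 8.2 to 179.5 and from 33.5 to 207.7 in 1448424_at. These probe sets did not follow each other (r = 0.06, permutation p = 0.84, adjusted p = 0.942, n = 14; rho = 0.09). Their log2 differences were -0.45 ± 0.55 (SE) and -0.95 ± 0.52 for UC versus CC (limma adjusted p = 0.855 and 0.662). UU versus CC gave -0.31 and -0.23, and UC versus UU -0.14 and -0.73. Dkk2 had signals of 33.5 to 125.8 in CC, 9.2 to 164.5 in UC and 19.4 to 47.6 in UU, and its differences were -0.08, -0.46 and 0.38.

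Dkk3 had the only probe set of the 7 tested whose signals did not overlap between UC and UU, but it did not pass the test. In 1448669_at the signals were 933.6, 636.2, 1192.2, 655.5 and 971.4 in CC, 645.9, 607.8, 933.4, 876.2 and 782.8 in UC, and 1911.3, 1103.4, 1004.7 and 1052.2 in UU. Every UU sample lay above every UC sample, while CC overlapped both. UU replicate 1 stood far above the rest. UC lay below UU by -0.67 ± 0.23 on the log2 scale (SE, unadjusted p = 0.012, adjusted p = 0.198 by limma, 95% interval -1.16 to -0.17). This was 1 of the 7 probe sets tested whose groups did not overlap, where 2.55% of all probe sets were lower in UC without overlap and 8.45% were lower at an unadjusted p under 0.05. Without UU replicate 1 it was -0.46 (unadjusted p = 0.063). Without CC replicate 2 and UC replicate 5 it was -0.68, and without all 4 samples low in epididymal markers -0.58 (unadjusted p = 0.0336). In the same comparison all 7 adipocyte and all 5 macrophage markers tested had a log2 difference above 0 and all 8 general epithelial markers one below 0, with general epithelial levels of 11.66 to 12.28 in UU and 9.11 to 11.91 in UC. Their part in the Dkk3 difference was not tested.

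Compared with CC, UU gave 0.50 ± 0.23 (SE, unadjusted p = 0.0479, limma adjusted p = 0.308) in this Dkk3 probe set, where 7.9% of all probe sets were higher at an unadjusted p under 0.05, and 0.29 without UU replicate 1 (unadjusted p = 0.216) or 0.40 without CC replicate 2 and UC replicate 5 (unadjusted p = 0.124), and 0.25 without the 4 samples low in epididymal markers (unadjusted p = 0.33). UC versus CC gave -0.16 ± 0.22 (adjusted p = 0.834). UU replicate 1 had the lowest macrophage marker level (10.76, mean log2 of 5 markers), the lowest mesothelial level (8.69) and a Lep signal of 85.6, the lowest of all samples. The part of this sample's makeup in its Dkk3 signal was not tested. The dimmer probe set, 1417312_at, had signals of 448.5, 450.3, 721.3, 81.7 and 499.2 in CC, 587.5, 272.1, 513.2, 436.7 and 631.0 in UC, and 805.7, 521.6, 665.7 and 584.0 in UU. Here too UU replicate 1 was the highest, and CC replicate 4 read 81.7, where 1448669_at gave 655.5. The groups overlapped, with 0.73 ± 0.44 for UU versus CC, 0.28 without CC replicate 4, and -0.41 ± 0.44 for UC versus UU (adjusted p = 0.417 and 0.66).

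Over the 14 arrays the brighter Dkk3 probe set was lower where fat expansion genes were higher, with r = -0.75 for Lep, -0.71 for Npr3 and -0.58 for Mest (permutation p = 0.00736, 0.00537 and 0.0263, adjusted p = 0.0607, 0.0591 and 0.0965; rho -0.53, -0.57 and -0.50, adjusted p = 0.309, 0.309 and 0.337). None passed adjustment. Without the 2 samples farthest from each gene's median r was -0.21, -0.41 and -0.29, and with group means removed it was -0.58, -0.40 and -0.07. The genes most like it were Herpud1, of endoplasmic reticulum protein degradation (r = 0.96), Uhrf1, which maintains DNA methylation (0.90), and the transcription factor Tfcp2 (0.88). For Sfrp1 1438620_x_at, Sfrp2 and Sfrp4, r with Lep, Npr3 and Mest ran from -0.09 to 0.31 (permutation test, adjusted p of 0.574 or more).

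**Figure D4:**
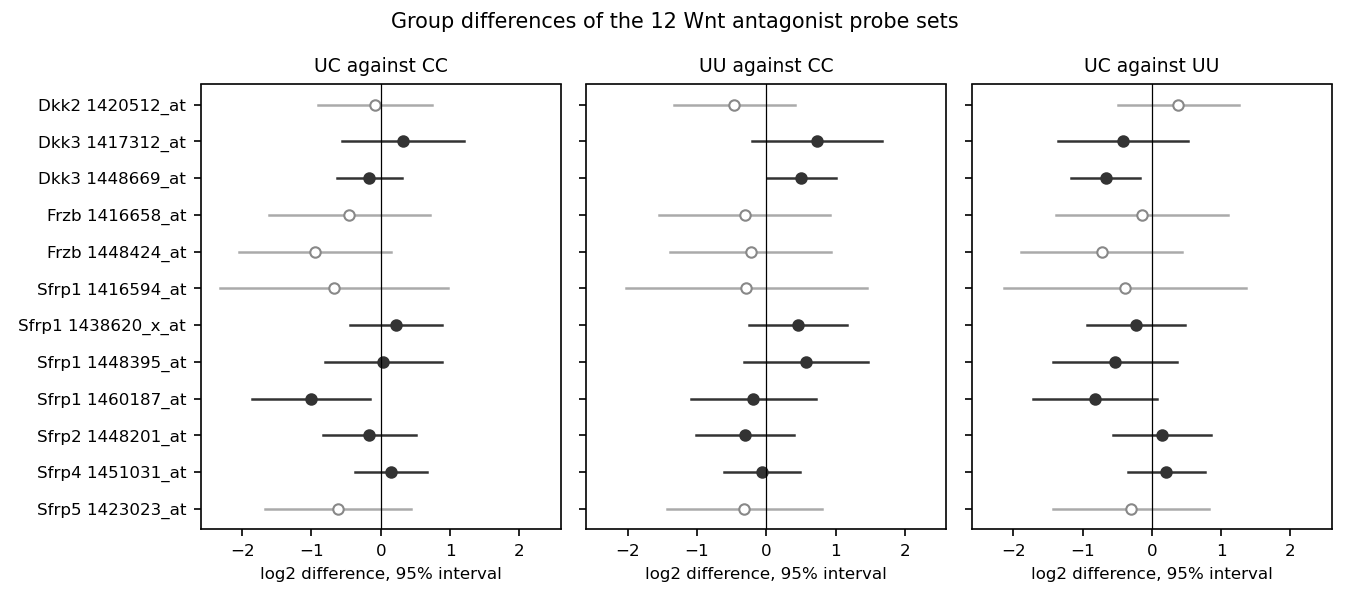
Log2 difference with its 95% interval for each of the 12 antagonist probe sets in the 3 comparisons. Filled points are the 7 probe sets above the signal filter and open points the 5 below it; intervals of 1448669_at (Dkk3) in UU versus CC and UC versus UU and of 1460187_at (Sfrp1) in UC versus CC do not cross 0, and 0 probe sets passed adjustment.

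Other genes of the Wnt pathway, from lists written from general knowledge, were read beside the antagonists, with the brightest probe set of each gene. No gene of the 6 pathway lists was called in any comparison (0 of 40 genes tested by limma, each comparison). At an unadjusted p under 0.05, UC versus CC gave 0 genes higher and 1 lower, UU versus CC 3 higher and 2 lower, and UC versus UU 2 higher and 4 lower. The shares over all probe sets were 4.13% higher and 5.1% lower, 7.9% and 8.05%, and 7.75% and 8.45%. In UC versus CC the medians lay between -0.15 for ligands and their secretion factors and 0.11 for intracellular transducers.

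Among ligands, 5 of 21 genes passed the filter. Wnt7b gave 0.78 ± 0.35 (SE) for UU versus CC (unadjusted p = 0.0389, limma adjusted p = 0.291), with all UU samples above all CC samples, where 4.17% of all probe sets were higher without overlap. Wnt5a gave 0.38 ± 0.20. Compared with UU, UC gave -0.66 and -0.35 for these genes. Wls and Porcn, which secrete and lipidate Wnt proteins, gave -0.39 ± 0.19 and -0.15 ± 0.17 for UC versus CC. Epithelial cells are a known source of Wnt7b, and the general epithelial marker level was 11.66 to 12.28 in UU and 8.58 to 12.21 in CC. Its part was not tested.

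Among receptors, 7 of 15 genes were tested. Fzd4, a receptor of endothelial and fat cells, gave -0.82 ± 0.27 for UU versus CC and 0.82 ± 0.27 for UC versus UU (SE, limma adjusted p = 0.178 and 0.171), the latter without overlap of the groups, as for 2.91% of all probe sets in that direction. The endothelial marker level was 10.06 to 10.45 in UU, 10.36 to 11.12 in UC and 10.60 to 11.42 in CC, and its part was not tested. Fzd6 gave -0.39, 0.79 and -1.17 and Fzd7 -0.31, 0.13 and -0.44 in UC versus CC, UU versus CC and UC versus UU. Of the R-spondin branch, which strengthens Wnt signals, 3 of 9 genes were tested. Rspo1 gave -0.28 for UU versus CC and 0.27 for UC versus UU, and the receptors Lgr5 and Lgr6 gave 0.08 and 0.22 for UC versus CC. Lgr6 gave 0.24 for UU versus CC and Lgr5 -0.10 for UC versus UU. Of the other antagonists 2 of 14 were tested, the lipase Notum, which inactivates Wnt, at 0.10, 0.35 and -0.25, and the membrane inhibitor Apcdd1 at -0.29, -0.41 and 0.12.

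Of the transducers, 13 of 18 were tested, with 11 above 0 in UU versus CC (median 0.24) and 11 below 0 in UC versus UU (median -0.18), comparisons that share the UU samples. Of all probe sets tested, 53.9% were above 0 in UU versus CC and 41.8% in UC versus UU. Tcf7l1, a TCF factor that often represses, gave 0.55 ± 0.19 for UU versus CC (SE, unadjusted p = 0.0095, limma adjusted p = 0.188) without overlap of the groups. In that comparison 4.17% of all probe sets were higher without overlap and 7.9% were higher at an unadjusted p under 0.05. For UC versus UU, Tcf7l1 gave -0.44 ± 0.19. Ctnnb1, beta-catenin itself, gave 0.42 ± 0.20 for UU versus CC. Bcl9, a beta-catenin cofactor, gave -0.64 ± 0.19 for UC versus UU (adjusted p = 0.149). For UC versus CC, Btrc, the ubiquitin ligase subunit that marks beta-catenin for destruction, gave -0.68 ± 0.28 (adjusted p = 0.516) and the kinase Csnk1a1 0.24 ± 0.17.

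Of the target genes, 10 of 12 were tested. Ccnd1, cyclin D1, gave 0.47 ± 0.22 for UU versus CC, and the adhesion receptor Cd44, also carried by leukocytes, -0.67 ± 0.29 (SE, limma adjusted p = 0.303 and 0.28). UC versus UU gave 0.82 ± 0.29 for Cd44, without overlap of the groups, and -1.76 ± 0.79 for the receptor Tnfrsf19 (adjusted p = 0.202 and 0.287). Of all probe sets tested, 2.91% were higher in UC than in UU without overlap. For UC versus CC, Ccn5 gave 0.42 and Myc -0.50. Macrophage markers, which move with leukocyte content, had levels of 10.76 to 11.95 in UU, 11.91 to 13.22 in UC and 12.05 to 13.37 in CC, and their part in the Cd44 values was not tested.

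**Figure D5:**
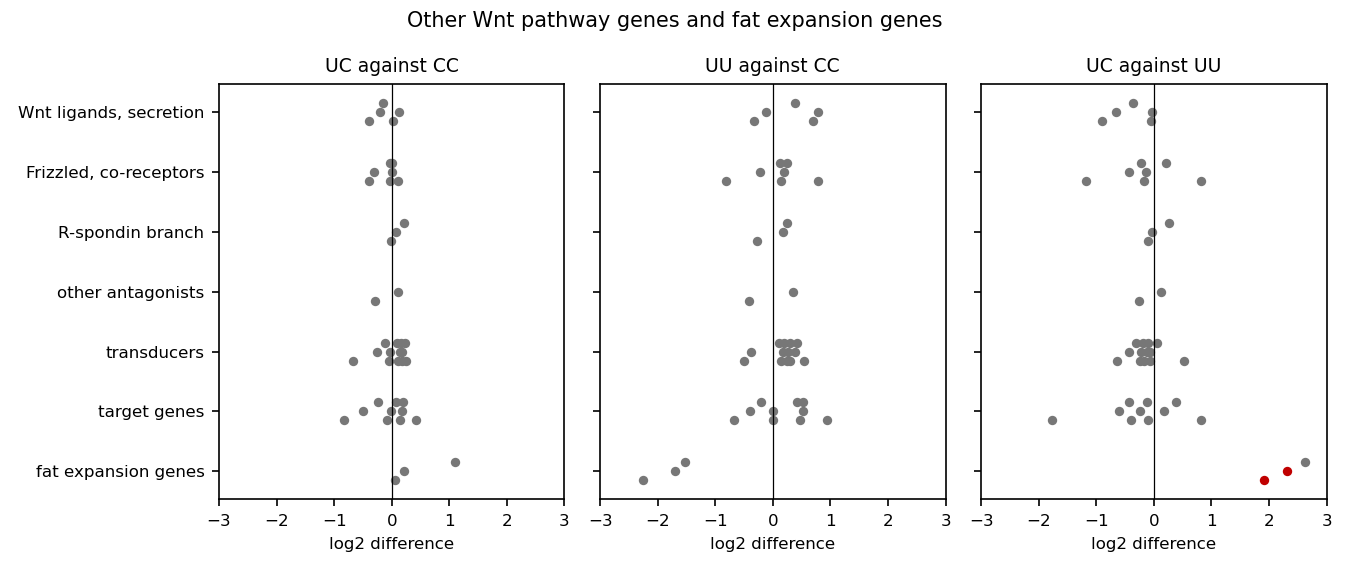
Log2 difference of each tested gene of 6 other Wnt pathway lists and of the fat expansion genes in the 3 comparisons; each point is a gene, read by its brightest probe set. Red points are the genes called at an adjusted p under 0.05, Mest and Npr3 in UC versus UU, and all pathway genes are grey.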

How the data were processed

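The deposited values are linear signal intensities of probe sets, for which the submitters' processing notes name GCOS 1.3 and MAS5. After trimming 2% at each end, the mean of each array lay between 1500.45 and 1500.57, so the arrays had been scaled alike. Detection calls, litters and scan dates were not used here. Of 22690 probe sets, 64 were controls, 20380 had 1 gene symbol, 691 several and 1555 none, and symbols were updated through Entrez identifiers for 20351.

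Signals were taken as log2(value + 32). Of 22626 probe sets, the 40% with the lowest average signal were dropped, and 13576 were tested. A single limma 3.58.1 model covered the 14 arrays (R 4.3.3, empirical Bayes with a mean-variance trend, 11 residual degrees of freedom) with 3 contrasts, which was tested on simulated data. The number of arrays limits the precision, with median standard errors of 0.22 (UC versus CC) and 0.23 (with UU). Correlations used log2 values and 100000 permutations. Alternatives covered pseudocount, filter, normalization, probe set rule, weights, a replicate block, samples left out and covariates. The 2 samples with Xist signal were left out as an alternative chosen after seeing the data. Relations to mesothelial and stromal levels, between probe sets of a gene and of Sfrp2 with Sfrp4 were not among those planned. Members and lists were chosen with earlier results of these data known. Named genes were all members, the 2 of smallest p of each pathway list in each comparison, all fat expansion genes with a probe set, and the 3 genes most like each member above the filter. Cell type levels are means over the markers above the filter.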

Additional observations from a re-analysis of the deposited data

Results flagged for a closer look

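In 36 groups of 4 or 5 samples (12 probe sets in 3 groups), 3 held a sample far from the others by Dixon's criterion at 95% on the log2(signal + 32) scale, which chance alone gives in about 1 in 20 groups. Dkk3 1448669_at read 1911.3 in UU replicate 1, against 1004.7 to 1103.4 in the other UU samples. Dkk3 1417312_at read 81.7 in CC replicate 4, against 448.5 to 721.3 in the other CC samples. Sfrp1 1460187_at read 322.1 in CC replicate 2, against 831.8 to 1103.2 in the other CC samples. The gap to the nearest sample as a share of the group's range was 0.855, 0.762 and 0.765 on that log2 scale, and the signals given here are linear.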

How the results depend on the processing

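No antagonist was called under any alternative run: of 954 member values, 907 kept their direction and 47 reversed, in 16 of 36 results, and the smallest adjusted p was 0.139. For causes of the changes below, the cause was not tested. Over all probe sets, limma called 60 in UC versus UU, 16 with no signal filter, 131 with median centring (129 higher), 23 with the epididymal marker level and 140 with the 3'/5' ratio, each as a covariate, and 1 in each of 3 settings, with only the 2 groups compared, without the 4 samples low in epididymal markers and without the 2 samples with Xist signal. Leaving out 1 sample gave 0 (UC replicate 2, 4 or 5) to 109 (UC replicate 1). UU versus CC had 0 calls (2166 at an unadjusted p under 0.05), 27 with array weights, 15 with the epididymal covariate, 1 without the 4 samples, 1 without the 2, and 0 to 2 without 1 sample. UC versus CC had 0 (1253 unadjusted) and 1 without the 4 samples. With the replicate number as a block, there were 77 calls in UC versus UU, 5 in UU versus CC and 0 in UC versus CC, but same-numbered samples deviated together with correlations from -0.27 to 0.40, so the numbers were not taken as pairing. Reversed log2 values follow. With array weights, Sfrp1 1438620_x_at was -0.051 and 1448395_at -0.035 in UC versus CC, Dkk2 0.026 in UC versus CC, and Sfrp4 0.16 and Frzb 1448424_at 0 in UU versus CC. Under the 3'/5' covariate, Sfrp1 1448395_at was -0.035 in UC versus CC and 1460187_at 0.074 in UU versus CC. With the epididymal covariate, Sfrp2 was -0.073 and Sfrp1 1416594_at 0.30 in UC versus UU, and Sfrp4 0.019 in UU versus CC. The largest pseudocount gave 0.001 for Frzb 1416658_at in UC versus UU, and the replicate block 0.003 for Sfrp4 in UU versus CC. Without the 2 samples with Xist signal, UC versus CC gave -0.27 for Sfrp1 1438620_x_at and 0.26 for Dkk2, UU versus CC 0.094 for Frzb 1416658_at and 0.11 for Sfrp4, and UC versus UU -0.088 for Sfrp2. Without the 4 samples, UC versus CC gave -0.24 for Sfrp1 1438620_x_at, -0.093 for Dkk3 1417312_at and 0.17 for Dkk2, UU versus CC 0.072 for Sfrp2, 0.19 for Sfrp4, 0.011 for Sfrp5 and 0.052 for Frzb 1448424_at, and UC versus UU -0.12 for Sfrp2 and 0.41 for Sfrp1 1416594_at. Leaving out 1 sample at a time, UC versus CC ranged from -0.39 to 0.18 for Dkk2, -0.14 to 0.55 for Dkk3 1417312_at, -0.10 to 0.40 for Sfrp1 1438620_x_at, -0.33 to 0.38 for 1448395_at, -0.40 to 0.092 for Sfrp2 and -0.024 to 0.32 for Sfrp4. UU versus CC ranged from -0.56 to 0.094 for Frzb 1416658_at, -0.63 to 0.057 for 1448424_at, -0.94 to 0.028 for Sfrp1 1416594_at and -0.18 to 0.11 for Sfrp4, and UC versus UU from -0.60 to 0.14 for Frzb 1416658_at, -0.86 to 0.26 for Sfrp1 1416594_at and -0.088 to 0.35 for Sfrp2. Dim signal limits the 5 probe sets below the filter, and 4 or 5 arrays a group limit all of them.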

Other observations

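Within the 10 samples with epididymal epithelium markers, the level of those markers (mean log2 of 5) was set against the brightest probe set of each of 5 antagonists. For Sfrp1 this was 1438620_x_at, and its other probe sets were not set against that level. Pearson r was 0.40 for Sfrp1, 0.32 for Sfrp2, -0.29 for Sfrp4, 0.16 for Sfrp5 and -0.56 for Dkk3, with permutation p of 0.258, 0.355, 0.434, 0.677 and 0.104 (n = 10, two-sided; adjusted p from 0.265 to 0.893 over 33 relations). Spearman rho was 0.53, 0.36, -0.56, 0.20 and -0.07 (permutation p = 0.124, 0.31, 0.096, 0.586 and 0.866). Without CC replicate 3 and UU replicate 1, the samples farthest from the median level, r was 0.36, 0.16, -0.86, 0.37 and -0.07. The values for Dkk3 and Sfrp4 changed most with those samples, and in opposite ways. Dkk3 became weaker and Sfrp4 stronger (permutation p = 0.0022, unadjusted; rho = -0.905). With all 10 samples and group means removed, r for Sfrp4 was -0.097.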
